A study of Homo sapiens with 12 samples.

Results

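H3K9ac and H3K9me2 were read at the starts of 7 genes that the transcription factor NRF2 is known to activate: HMOX1, NQO1, SLC7A11, GCLC, GCLM, TXN and SRXN1. The members were chosen by gene name, and each was followed in a window of 5 kb either side of 1 given start position on hg19. These 7 windows stand beside windows of the same width on all 21945 merged regions of the authors' reproducible H3K9ac sets, of which 11387 regions were present in both sets. The cells were MDA-MB-231, an established line of triple negative breast cancer. Treated cells received 500 µM DETA/NO, a slow donor of nitric oxide, for 24 h after overnight serum starvation, and untreated cells were the control. Each condition had 2 biological replicates for each mark, and the input samples were not analysed here.

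NRF2 is kept low by KEAP1, an adaptor that marks it for destruction. Oxidants, electrophiles and nitric oxide derived species modify cysteines of KEAP1, after which NRF2 accumulates, pairs with small MAF proteins and binds antioxidant response elements near its target genes. Acetylation of lysine 9 of histone H3 (H3K9ac) marks active gene starts, and its dimethylation (H3K9me2) marks silent domains. NRF2 binding and RNA were not measured in these libraries.

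The windows, on hg19 and counted from 1, were placed as follows. HMOX1 was read on chromosome 22 from 35772060 to 35782060. NQO1 was read on chromosome 16 from 69755533 to 69765533. The SLC7A11 window ran on chromosome 4 from 139158503 to 139168503. GCLC lay on chromosome 6 from 53404927 to 53414927 and GCLM on chromosome 1 from 94370012 to 94380012. The TXN window ran on chromosome 9 from 113013920 to 113023920, and the SRXN1 window on chromosome 20 from 629014 to 639014. HMOX1 is read on the plus strand and the other 6 genes on the minus strand, so downstream means into the gene in every case.

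RefSeq promoter sequences on GRCh38.p14 were matched by symbol for 5 of the 7 genes, all except HMOX1 and SLC7A11. They were searched on both strands for TGACNNNGC, the core of the antioxidant response element, in the 250 bases before and the 50 bases after each start. GCLM held 1 match, from 34 to 26 bases before its start, and GCLC, NQO1, SRXN1 and TXN held 0 in this window. Over all 35116 promoters of this length, 13.3% held at least 1 match. The 250 bases upstream of GCLM are shown because they hold that match, marked by capitals, which on the strand printed reads as the reverse complement of the motif. Those of NQO1 are shown because H3K9ac at this gene lay mostly over its upstream side.

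GCLM, chr1:93909431-93909680, minus strand: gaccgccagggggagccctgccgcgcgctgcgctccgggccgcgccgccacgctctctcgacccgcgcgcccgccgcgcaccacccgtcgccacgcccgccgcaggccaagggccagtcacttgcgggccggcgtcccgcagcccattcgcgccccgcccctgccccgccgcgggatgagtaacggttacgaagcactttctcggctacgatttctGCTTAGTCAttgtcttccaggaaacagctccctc
NQO1, chr16:69726561-69726810, minus strand: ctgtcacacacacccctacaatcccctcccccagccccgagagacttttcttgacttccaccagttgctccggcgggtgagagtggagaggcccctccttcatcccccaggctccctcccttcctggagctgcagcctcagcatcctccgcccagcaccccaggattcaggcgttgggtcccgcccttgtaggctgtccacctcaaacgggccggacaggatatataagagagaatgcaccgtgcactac

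The deposited H3K9ac lists of single libraries held 79538 and 69151 peaks in treated cells and 120630 and 59724 peaks in untreated cells, for replicates 1 and 2 in that order. The lists give intervals and an authors' score, not reads, so the depth behind them is unknown. The measure used here is the covered length, which is the number of bases of a window that lie in peaks of a library. Over the whole genome it was 52.1 and 37.8 Mb in the treated libraries and 48.3 and 22.8 Mb in the untreated libraries, so the conditions overlapped. Over the reproducible regions both treated libraries were higher. The mean covered length of the 11387 windows on regions of both sets was 3309 and 2595 bp in the treated libraries and 1934 and 1438 bp in the untreated ones.

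At the 7 NRF2 target starts, both treated libraries lay above both untreated libraries in every window. This pattern was common in the series: 81.7% of the windows on all merged regions and 86.1% of those on regions of both sets showed it, so 7 of 7 is close to that background. With all lists shortened to the 59724 highest-scoring peaks of each, the share was 87.1% beside again 7 of 7. The median difference of the condition means was 1403.5 bp over the 7 starts, against 1029 bp over all windows. The size of the difference varied widely among the members. HMOX1 and SLC7A11 had 6.30 and 6.60 times the untreated covered length, whereas the other 5 lay between 1.44 and 2.09 times and the median of all windows with a ratio was 1.90 times. These values depended on single libraries and on the scale. The HMOX1 ratio was 10.4 without untreated replicate 1 and 3.75 with libraries scaled to their mean over windows on regions of both sets. That of SLC7A11 was 4.39 without treated replicate 1, 14.5 with the 20000 highest-scoring peaks of each list and 3.45 with the same scaling. The untreated lengths at these genes rest on short peaks. In untreated replicate 2 their highest score was 0.82 at both genes, and 25.96% of that list scored no higher. In untreated replicate 1 it was 6.07 at HMOX1 and 6.67 at SLC7A11, where 90.59% and 90.85% scored no higher. Each gene's exact two-sided permutation p was 0.333, the smallest that 2 libraries against 2 can give.

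**Figure D1:**
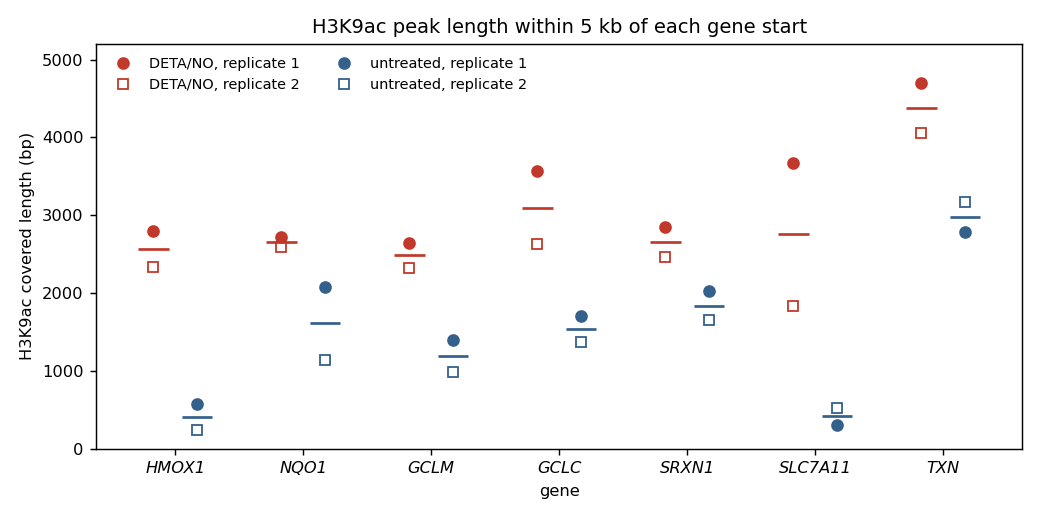
H3K9ac covered length in bp within 5 kb of each gene start, for treated libraries (red, left) and untreated libraries (blue, right), with circles for replicate 1, squares for replicate 2 and a line at the mean of 2. All treated points lie above the untreated points of the same gene, with the widest gaps at HMOX1 and SLC7A11.

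HMOX1 encodes heme oxygenase 1, which splits heme into biliverdin, iron and carbon monoxide. Its window held 2801 and 2341 bp of H3K9ac in treated libraries, against 569 and 247 bp in untreated libraries. The means were 2571 bp ± 325 in treated and 408 bp ± 228 in untreated cells (SD, n = 2 each). The groups were 1772 bp apart at their nearest libraries. In treated cells a peak ran across the start, from 602 bases upstream to 2091 downstream in replicate 1 and from 398 upstream to 1140 downstream in replicate 2. In untreated cells each library had a single short peak inside the gene, from 230 to 798 and from 212 to 458 bases downstream, and none upstream. The start itself was thus inside a peak in both treated libraries and in neither untreated one.

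SLC7A11 encodes the transport subunit of the cystine/glutamate antiporter, which imports the cystine needed for glutathione. Covered length was 3676 and 1830 bp in treated libraries and 304 and 530 bp in untreated libraries. Here the treated replicates lay far apart, at 2753 bp ± 1305 (SD, n = 2), yet the lower of them exceeded the higher untreated library by 1300 bp. Untreated cells averaged 417 bp ± 160 (SD, n = 2). The peak over the start ran from 158 bases upstream to 2147 downstream in treated replicate 1 and from 52 upstream to 985 downstream in treated replicate 2. The untreated peaks again lay wholly downstream, from 266 to 569 bases in replicate 1 and from 115 to 289 and 588 to 942 bases in replicate 2. Upstream of SLC7A11 the treated libraries had 1225 and 345 bp and the untreated libraries 0 and 0 bp.

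**Figure D2:**
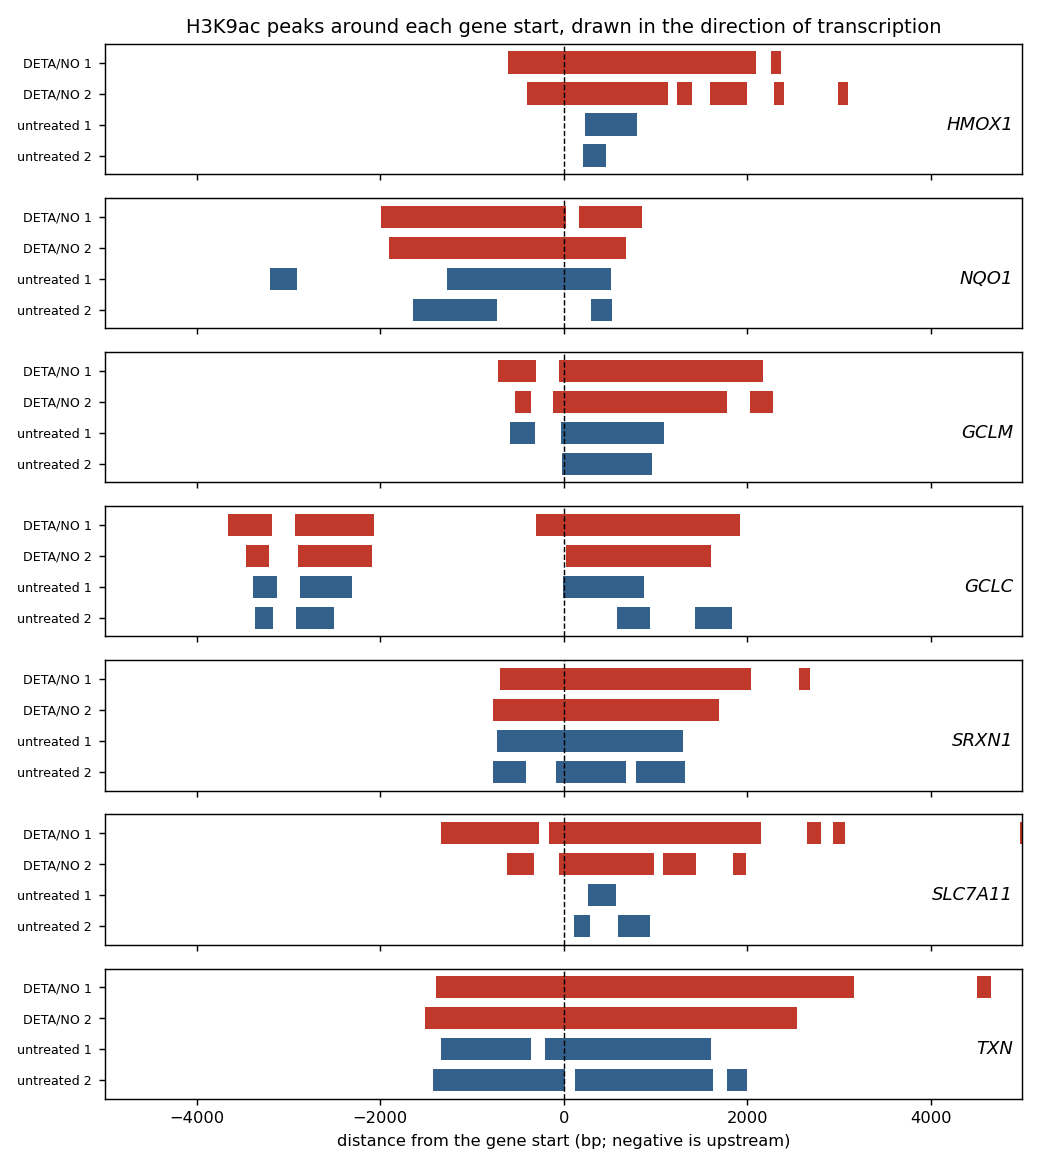
H3K9ac peaks of each library within 5 kb of the 7 gene starts, drawn to scale in bp from the start in the direction of transcription, with the treated libraries (red) above the untreated ones (blue) and a dashed line at the start. At HMOX1 and SLC7A11 the untreated peaks do not reach the start, whereas treated peaks cross it.

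In the authors' reproducible sets, 1 per condition and so without replicates, HMOX1 and SLC7A11 had a region in treated cells only. The HMOX1 region spanned 2694 bp, from 35776458 to 35779151, and the SLC7A11 region 2306 bp, from 139161356 to 139163661. The authors gave the HMOX1 region a reproducibility score of 5.129 and the SLC7A11 region one of 5.057. Both were near the middle of the treated set, where 49.0% of regions scored no higher than HMOX1 and 46.6% no higher than SLC7A11. The score is taken to be a −log10 rate. Of all windows that held a treated reproducible region, 35.3% held no untreated one, against 2 of the 7 starts. The single untreated libraries did hold the short peaks described above in both windows.

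The other glutathione genes encode the catalytic (GCLC) and modifier (GCLM) subunits of glutamate-cysteine ligase, the first enzyme of glutathione synthesis. At GCLC covered length was 3567 and 2630 bp in treated libraries and 1712 and 1369 bp in untreated libraries, a ratio of means of 2.01. At GCLM it was 2648 and 2320 bp in treated libraries and 1393 and 983 bp in untreated ones, a ratio of 2.09. The groups did not overlap at either gene, and both ratios were near the median of all windows. Of windows on regions of both sets, 71.4% had a ratio no higher than GCLC and 75.9% no higher than GCLM.

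GCLC was the only one of the 7 with more than 1 reproducible region in its window, at 3 in each set. All 4 libraries held a pair of peaks upstream. The start lay outside any peak in replicate 2 of both conditions. The nearest peak was 587 bp away in untreated replicate 2 and 28 bp away in treated replicate 2. The nearer reproducible region lay from 2065 to 2928 bases upstream in treated cells and from 2304 to 2916 in untreated cells. The farther one lay from 3181 to 3661 bases upstream in treated cells and from 3129 to 3382 in untreated cells. The region at the start was 2222 bp long in the treated set and 952 bp in the untreated set. GCLM had 1 reproducible region in each set, with nearly all of its length inside the gene. That region was 2402 bp long in treated and 1121 bp in untreated cells, and it reached 119 bases upstream in treated cells and 26 in untreated cells.

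NQO1 encodes a quinone reductase that is widely used as a readout of NRF2. Its covered length was 2721 and 2586 bp in treated libraries and 2075 and 1145 bp in untreated libraries. The untreated replicates differed by more than the 511 bp that separated the nearest libraries of the groups. Acetylation lay mostly upstream at this gene, with 1995 and 1904 bp upstream in treated libraries and 1558 and 918 bp in untreated libraries. Downstream, inside the gene, there were 726 and 682 bp in treated and 517 and 227 bp in untreated libraries. RefSeq lists a divergent long noncoding RNA, NQO1-DT, as the upstream neighbour of NQO1 on GRCh38.p14.

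TXN and SRXN1 belong to the thioredoxin branch. TXN is thioredoxin, which reduces disulfides in proteins, and SRXN1 is sulfiredoxin, which restores overoxidised peroxiredoxins. TXN had the most H3K9ac of the 7 windows in every library, with 4703 and 4057 bp in treated and 2780 and 3173 bp in untreated libraries. SRXN1 had 2847 and 2463 bp in treated libraries and 2028 and 1650 bp in untreated libraries. The ratios of means, 1.47 for TXN and 1.44 for SRXN1, were the lowest of the 7 and below the median of all windows. At both genes the longer treated peaks extended into the gene rather than away from it. This was not particular to them: downstream length was higher in both treated than in both untreated libraries at all 7 starts. Upstream length was so at 4 of the 7. No such shares were computed for other windows. The reproducible region of TXN reached 3167 bases downstream in treated cells and 1632 in untreated cells. Upstream it reached 1509 bases in treated cells and 1428 in untreated cells. For SRXN1 the same edges were 2038 bases downstream in treated and 1317 in untreated cells, and upstream they were 774 bases in treated and 770 in untreated cells.

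**Figure D3:**
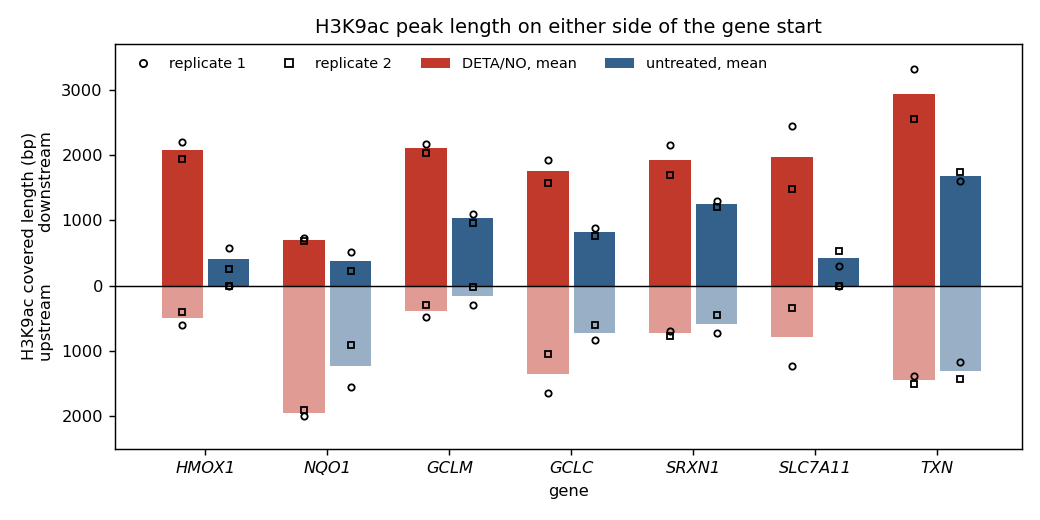
H3K9ac covered length in bp downstream (up) and upstream (down, paler) of each gene start, as bars at the mean of 2 libraries, treated in red left of untreated in blue, with points for each replicate. Upstream length at TXN averaged 1448 bp in treated and 1303 bp in untreated cells, whereas downstream it averaged 2932 bp in treated and 1673.5 bp in untreated cells; at HMOX1 and SLC7A11 no untreated peak lay upstream.

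Across the 7 genes the reproducible sets gave more length in treated cells at every start, as they did in 94.5% of all windows. For the 5 starts with a region in both sets, treated over untreated length ran from 1.32 at NQO1 to 2.14 at GCLM, around a median of 1.79 over all windows with both. Mean covered length also varied less among 6 of the genes in treated than in untreated cells, through low untreated values at HMOX1 and SLC7A11. Leaving TXN aside, mean covered length ran from 2484 bp at GCLM to 3098.5 bp at GCLC in treated cells, and from 408 bp at HMOX1 to 1839 bp at SRXN1 in untreated cells. In treated cells these 6 means lay closer together than the replicates of SLC7A11 did. Without HMOX1 and SLC7A11, untreated means ran from 1188 bp at GCLM to 1839 bp at SRXN1, a span much like that in treated cells. Such spans were not computed for other sets of windows.

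Set against the median gain of all windows, the 7 genes lay on both sides. The windows came from 21098 treated and 14377 untreated reproducible regions, so more regions entered from the treated set. The median log2 ratio of treated to untreated covered length over all windows with a ratio was 0.93. Relative to that shift, SLC7A11 stood at 1.79 and HMOX1 at 1.73 on the log2 scale, GCLM at 0.14 and GCLC at 0.08. NQO1, TXN and SRXN1 stood at -0.21, -0.37 and -0.40. Windows on regions of both sets had a median ratio of 1.74 times. Relative to those windows SLC7A11 stood at 1.93, HMOX1 at 1.86, GCLM at 0.27 and GCLC at 0.21. SLC7A11 and HMOX1 had no untreated reproducible region, so they are unlike these windows, which were chosen for having one. NQO1, TXN and SRXN1 were at -0.07, -0.24 and -0.27. A ratio could be formed in 20771 of the 21945 windows, and the ratio of SLC7A11 was at or above that of 94.9% of these and that of HMOX1 at or above 94.4%. The other 1174 windows had treated and no untreated length. With those counted as higher, the shares of all windows were 89.8% for SLC7A11 and 89.3% for HMOX1. When all windows were divided into 5 equal parts by mean covered length over the 4 libraries, both genes belonged to the middle part, whose 4373 windows with a ratio had a median log2 ratio of 0.93. In that part 96.8% of windows had a ratio no higher than SLC7A11 and 96.4% no higher than HMOX1.

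**Figure D4:**
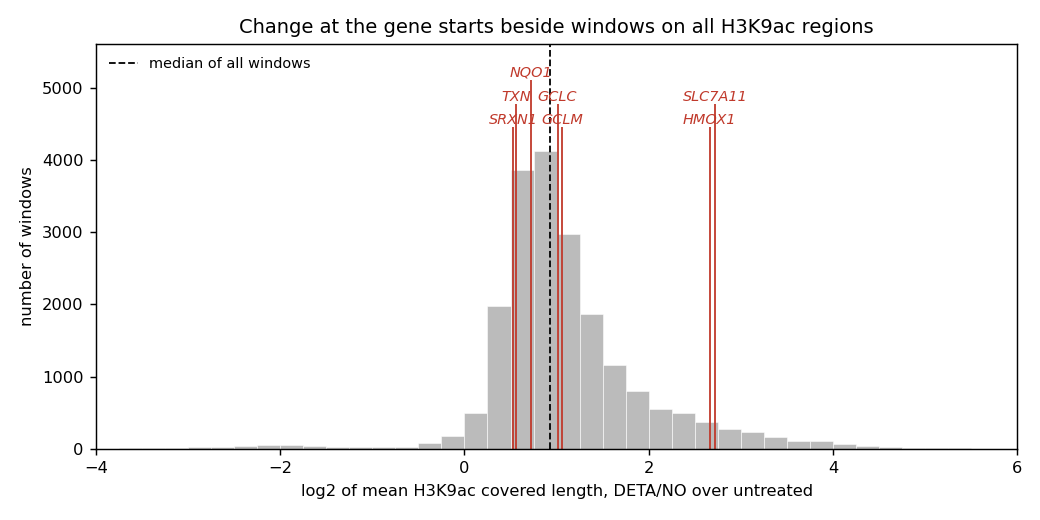
Number of windows on merged H3K9ac regions (grey bars) by the log2 ratio of mean covered length, treated over untreated, with the median of all windows dashed at 0.93 and the 7 gene starts as red lines. HMOX1 at 2.66 and SLC7A11 at 2.72 lie in the right tail and the other 5 near the peak; 1174 windows with no untreated length, which would lie to the right, 430 with no treated length, 7 below and 4 above the axis are not drawn.

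Windows were also ranked within each library, which sets overall coverage aside but not the choice of windows. These came from 21098 treated and 14377 untreated reproducible regions, so the conditions enter the ranking unequally. HMOX1 stood at percentiles 59.3 and 65.4 of all windows in treated libraries and at 23.0 and 25.5 in untreated libraries. SLC7A11 stood at 76.1 and 50.2 in treated and at 14.1 and 38.3 in untreated libraries. GCLC stood close together in the conditions, at 74.4 and 72.8 in treated and 65.5 and 71.7 in untreated libraries. In these 3 windows both treated percentiles exceeded both untreated ones, as in 20.3% of all windows. SRXN1 went the other way, with 60.3 and 68.8 in treated libraries and 75.4 and 80.6 in untreated libraries. The share of all windows that fell in this way was not computed, so the fall at SRXN1 has no background. At TXN, NQO1 and GCLM the groups overlapped.

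A limma fit to the arcsine square root of the covered share of 21952 windows, the 7 starts included, called 4555 windows higher (20.7%) and 489 lower (2.23%) in treated cells at a Benjamini-Hochberg adjusted p under 0.05. Of the 7 starts it called HMOX1 and SLC7A11. On this scale HMOX1 was higher by 0.332 (SE 0.0791, limma adjusted p = 0.0285) and SLC7A11 by 0.343 (SE 0.0893, limma adjusted p = 0.0335), with both treated libraries above both untreated ones in each. GCLC and GCLM missed the threshold (limma adjusted p = 0.0689 and 0.0885), as did TXN, NQO1 and SRXN1 (limma adjusted p = 0.12, 0.153 and 0.225). Neither call held when any 1 of the 4 libraries was left out, where limma adjusted p ran from 0.0691 to 0.395 for HMOX1 and from 0.134 to 0.408 for SLC7A11. The estimates in these fits ran from 0.291 to 0.374 for HMOX1 and from 0.238 to 0.448 for SLC7A11. After each library was scaled to its mean over the windows on regions of both sets, limma adjusted p was 0.087 for HMOX1 and 0.17 for SLC7A11, the estimates for NQO1, TXN and SRXN1 turned negative, and limma called 0 windows of the table, with 3146 higher and 1172 lower at an unadjusted p under 0.05.

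H3K9me2 was not called in any of the 7 windows, in any of the 4 libraries, with a covered share of 0% throughout. Windows on H3K9ac regions rarely held this mark: 3.02% of them met an island in at least 1 library. Distances to the nearest island ran from 93.5 to 35772 kb in treated libraries and from 23.0 to 19425.1 kb in untreated libraries. SLC7A11 lay nearest to such a domain, with islands 93.5 and 269.5 kb away in treated libraries and 127.0 and 23.0 kb away in untreated ones. Within 50 kb of its start, untreated replicate 2 had 9000 bp of islands and the other 3 libraries 0 bp, so the conditions overlapped. In that wider span 1 of the 7 starts met an island, against 11.5% of windows on all H3K9ac regions. HMOX1 lay far from any island in all 4 libraries, at 19666.6 and 19425.1 kb in treated and 19425.1 kb in both untreated libraries. No island was called within these distances on chromosome 22, so they describe that whole stretch and not the HMOX1 start in particular. The farthest single value was that of NQO1 in treated replicate 2, at 35772 kb, against 1285.5 kb in the other 3 libraries. Treated replicate 2 also had the fewest islands in total, 10590 against 14554 in treated replicate 1. The untreated libraries had 12573 and 14457. At SRXN1 the distances were 442.0 and 438.5 kb in treated libraries and 886.5 and 465.5 kb in untreated ones. The gap between the groups, from 442.0 to 465.5 kb, was small beside the spread of the untreated replicates. The share of all windows with distances separated in this way was not computed. The conditions overlapped at GCLC, GCLM and TXN, the last with 263.6 and 4053.9 kb in treated and 3489.6 and 458.6 kb in untreated libraries.

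**Figure D5:**
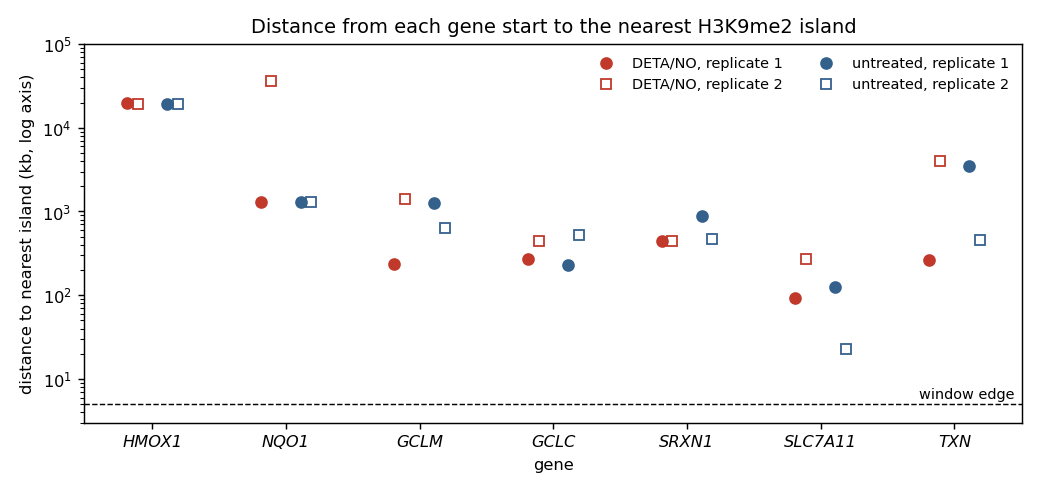
Distance in kb, on a log axis, from each gene start to the nearest H3K9me2 island in treated libraries (red, left) and untreated libraries (blue, right), with circles for replicate 1, squares for replicate 2 and a dashed line at the window edge of 5 kb. All points lie above the window edge, and SLC7A11 has the nearest island at 23.0 kb in untreated replicate 2.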

How the data were processed

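Per the submitters' processing notes, reads were handled on hg19 with Trimmomatic 0.32, BWA 0.7.5 and Picard, and MACS2 and SICER were used; which program made which list, and with what settings, is not given in the sources used here. Deposited by the authors were H3K9ac peaks of 4 single libraries and H3K9me2 islands of 4 single libraries, each with an authors' score. They also deposited 1 reproducible H3K9ac set per condition, with a −log10 value per region, taken to be a rate of irreproducibility from the name and the lowest value of 1.301. Scores were used only within a list. Other deposited columns are interval starts and ends; 1 bp was added to H3K9me2 ends, which are inclusive.

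The start positions were those given for the members, in windows of 10001 bp. Members and gene lists were chosen with earlier results of these data known, and all 7 members were named. Overlapping reproducible regions were merged and windows centred on their midpoints, so background windows were chosen from the H3K9ac calls and the members were not; neighbouring windows overlap. Covered lengths were compared by exact permutation of the 4 libraries and by limma 3.58.1 (R 4.3.3; trend on the mean), without a replicate block. Intervals were handled in Python 3.11.15 with pandas 2.3.3 and numpy 2.4.6. The other genes of the pathway were not used, as they had no hg19 positions. The interval code and the limma step were tested on simulated data. Alternatives were list length, window width, scale, filter, replicates left out and a replicate block; the scaling to shared windows and the crossed block were added after seeing the data.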

Additional observations from a re-analysis of the deposited data

How the results depend on the processing

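In H3K9ac covered length, the 7 of 7 windows with both treated libraries above both untreated ones and the sign of each gene's difference held for equal list lengths, the 20000 highest-scoring peaks, windows of 2 and 10 kb either side, each library left out (7 to 7 windows, median difference 1089.5 to 1726.5 bp) and a difference taken within each replicate number. All 7 also had more length in the treated reproducible set at each window width and with that set shortened to the size of the untreated one. Scaling each library to its mean over windows on regions of both sets, a choice made after seeing the data, left 4 of 7 windows without overlap (HMOX1, SLC7A11, GCLC and GCLM) and a median difference of 294.2 bp. The share of all windows without overlap under this scaling was not computed, so the count has no background. With it, limma adjusted p was 0.548 for GCLC and 0.522 for GCLM. The scaling turned the differences of NQO1, SRXN1 and TXN to -58.8, -448.7 and -765.4 bp and their limma estimates to -0.0066, -0.0532 and -0.0776 on the arcsine scale.

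Counts of limma calls moved more. Scaling gave 0 higher and 0 lower windows, with 3146 and 1172 at an unadjusted p under 0.05, and 0 of the 7 starts. Equal list lengths gave 8337 higher and 291 lower of 21951 windows and called 3 of the 7 starts, with GCLC added. A mean covered share of at least 0.05 gave 6260 higher and 118 lower of 19401 windows and called 2. Windows on regions of both sets gave 3828 higher and 37 lower of 11394, the starts included. There 4 of the 7 starts were called, with GCLM and GCLC added. Leaving out 1 library gave 599 to 2498 higher, 59 to 439 lower and 0 to 0 of the 7 starts; the lone library of a condition is then assumed to vary like the others. The replicate block gave 12974 higher of 21952 windows and called 6 of the 7 starts, all but SRXN1. No label ties a replicate number to a batch or day, and the deviations of same-numbered libraries correlated at -0.107 over 21945 windows. That correlation cannot register an offset common to all windows. In mean covered length over windows on regions of both sets, replicate 1 exceeded replicate 2 in both conditions. The values were 3309 and 2595 bp in treated cells and 1934 and 1438 bp in untreated cells. The crossed replicate block gave 1270 higher and 68 lower windows and called 0 of the 7 starts. The cause of these differences was not tested. H3K9me2 met 0 of the 7 windows in each setting except 50 kb either side, where it met 1. Depth could not be weighed, since the lists hold no reads.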
